A study of Mus musculus with 2 samples.

Results

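The Hippo pathway genes described here are 10 genes, *Yap1*, *Wwtr1*, *Tead1*, *Tead2*, *Tead3*, *Tead4*, *Lats1*, *Lats2*, *Vgll4* and *Nf2*, out of 21938 protein-coding genes of the annotation. A peak of open chromatin was assigned to a member when its centre lay within 3 kb of any annotated transcription start site (TSS) of the gene, or in the gene body and the 10 kb upstream of it. This gave 70 of 77596 peaks in the list labelled WT and 78 of 100431 peaks in the list labelled *Bmi1*-/-. The Hippo pathway is a kinase cascade that restrains growth. NF2 activates LATS1 and LATS2, which phosphorylate the coactivators YAP and TAZ and so keep them out of the nucleus, where they would otherwise bind TEAD factors and switch on growth genes. In the inner ear, YAP and TEAD are known to support proliferation of the progenitors of the sensory epithelium, and the pathway is studied as a limit on the division of supporting cells.

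Chromatin accessibility was measured by ATAC-seq, in which a transposase inserts sequencing adapters into open DNA, in the organ of Corti, the hearing epithelium of the cochlea. Mice at P2 were either WT or *Bmi1*-/-, littermates from the line FVB.129P2-Bmi1tm1Brn/MvlJ after repeated backcrossing to C57BL/6 J. *Bmi1* encodes a subunit of the Polycomb repressive complex PRC1. The tissue of 10 mice was pooled per genotype and gave 1 library each, so there are no replicates, and differences between genotypes could not be set against variation among animals.

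The labels of the lists are in conflict. Every name in the WT list begins with a prefix that reads as knockout, and every name in the *Bmi1*-/- list with one that reads as wild type. GEO's labels were kept, and every direction given here rests on them. WT and *Bmi1*-/- below stand for the lists so labelled. At *Bmi1* itself, WT had 1 promoter peak, at percentile 40.1, while *Bmi1*-/- had 4 with the strongest at percentile 92.0. The strongest peaks assigned to *Bmi1*, an overlapping pair upstream, were ordered the other way, at percentile 97.5 in WT and 94.3 in *Bmi1*-/-. They were not promoter peaks, since they lay 4727 bp in WT and 4563 bp in *Bmi1*-/- from the nearest *Bmi1* TSS. Whether this pair belongs to *Bmi1* or to another gene was not tested. The stretch removed by the allele was not given in the sources used here, so these peaks cannot decide which label is right.

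Depth was known only from the peaks. The number of reads piled up at a summit and the local background follow from a peak's fold enrichment together with its p-value, and were solved from them, taking fold enrichment as pileup over background after 1 is added to each. The background that occurred most often was 6.32 reads for WT and 8.04 for *Bmi1*-/-, which is 1.27 times as many. At the members' summits the median pileup was 19 reads in WT, with a range of 15 to 33, and 22 reads in *Bmi1*-/-, with a range of 17 to 39. The medians over all peaks were the same, 19 and 22 reads. A q-value under 0.05 was reached by 39 of the 70 member peaks in WT (55.7%, beside 52.4% of all) and by 44 of 78 in *Bmi1*-/- (56.4%, beside 62.8%). Low pileups were thus common to the whole lists. Intervals given below are 95% intervals, exact binomial for shares and exact conditional for ratios, and cover counting error only.

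All 10 members had a promoter peak, one centred within 3 kb of a TSS, in both lists, as did 53.0% of all protein-coding genes. For 9 members, all but *Tead2*, promoter peaks of the 2 lists overlapped by at least 1 bp, against 40.4% of all protein-coding genes. Genes with many TSS have more promoter sequence in which a peak can fall, and 7 of the members had 7 or more TSS positions. Among all genes with 7 or more TSS positions, 82.7% had a promoter peak in both lists and 66.0% had overlapping ones. Just inside the window of 3 kb were *Bmi1*-/- peaks of *Lats2* and *Yap1*, 2983 and 2977 bp from a TSS, and just outside a *Bmi1*-/- peak of *Tead3* at 3141 bp and a WT peak of *Lats2* at 3270 bp.

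The number of member peaks was 1.11 times as high in the list labelled *Bmi1*-/- (interval 0.797 to 1.56), while the whole list was 1.29 times as long (1.28 to 1.31). The ratio at the members turned below 1 when the lists were shortened to equal length (0.80) and when *Tead1*, the longest member, was left out (0.930). Its direction thus depended on these choices. Per 100 kb of gene region the members held 7.52 peaks in WT and 8.38 in *Bmi1*-/-, against 4.57 and 5.74 over all protein-coding genes.

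Of the WT member peaks 24 (34.3%, interval 23.3% to 46.6%) overlapped the other list, against 24.8% of all WT peaks. Of the *Bmi1*-/- member peaks 23 (29.5%, 19.7% to 40.9%) did so, against 18.5% of all. In both lists the share was higher at promoters than away from them, among the members and over all peaks. The members' intervals at promoters and away from them overlapped each other. At promoters 13 of 24 WT peaks overlapped (54.2%, 32.8% to 74.4%), close to the 48.8% of all promoter peaks, and 11 of 28 *Bmi1*-/- peaks (39.3%, 21.5% to 59.4%), close to 36.6%. Away from promoters the shares were 23.9% of 46 WT peaks (12.6% to 38.8%) and 24.0% of 50 *Bmi1*-/- peaks (13.1% to 38.2%), with 16.1% and 12.2% over all such peaks. The list-wide shares lay within the members' intervals for WT and at the promoters of both lists. For *Bmi1*-/-, 18.5% over all and 12.2% away from promoters lay just under them. Ranked by −log10 p within their own list, overlapping member peaks had a median percentile of 65.4 in WT and 81.3 in *Bmi1*-/-, and the others 40.1 and 36.9. Over all peaks these medians were ordered alike, at 65.4 and 74.8 for overlapping peaks and 45.6 and 44.0 for the others. Single members departed from this, since in *Bmi1*-/- the median of overlapping peaks was lower at *Vgll4* (43.1 against 57.8) and *Lats2* (29.2 against 38.3).

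The strongest promoter peak of a member stood at a higher percentile in *Bmi1*-/- than in WT at 5 of the 10 genes, namely *Yap1*, *Wwtr1*, *Tead1*, *Tead2* and *Vgll4*. Of the 11618 protein-coding genes that could be compared in this way, 67.5% stood higher in *Bmi1*-/-. The median percentile over the members was 87.1 in WT and 91.5 in *Bmi1*-/-, beside 78.5 and 90.8 over those genes. Percentiles from lists of unequal length and depth are not on a common scale, since weak peaks added to the longer list raise the percentile of strong ones. With equal list lengths the count was 4, as it was with curated RefSeq transcripts. At a −log10 q of at least 1.3 it was 7. The share over all protein-coding genes was not recomputed at these settings, so these counts have no background beside them.

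**Figure D1:**
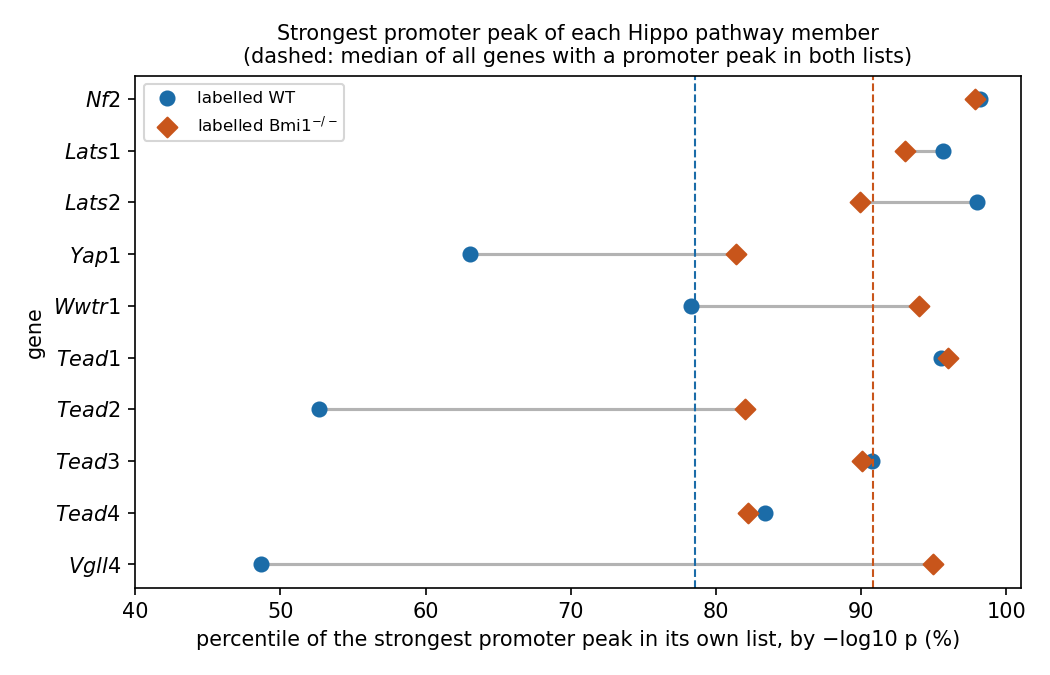
Percentile of the strongest promoter peak of each member, ranked by −log10 p within its own list (x axis, in percent), for WT and *Bmi1*-/-, with dashed lines at the medians, 78.5 and 90.8, of all protein-coding genes with such peaks in both. *Vgll4* shows the widest gap, from 48.6 to 94.98, between peaks at different TSS of the gene. *Nf2*, *Tead1* and *Tead3* show the narrowest. The strongest peaks of the lists do not overlap at *Tead2*, *Lats2* and *Vgll4*.

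*Nf2*, which encodes the scaffold protein Merlin upstream of the kinases, had the strongest promoter among the members in both lists. In WT the promoter peak at chr11:4849337-4849813 (GRCm38) was at percentile 98.2, with 26 reads over a background of 6.32. In *Bmi1*-/- the peak at chr11:4848849-4849794 was at percentile 97.8, with 36 reads over a background of 9.44. The *Bmi1*-/- peak was 946 bp wide and overlapped 2 separate WT peaks, and the strongest summits of both lists lay 6 bp apart. After division by the ratio of the commonest backgrounds, the pileup was 1.09 times as high in *Bmi1*-/- (0.639 to 1.88). Outside the promoter *Nf2* held 3 intronic peaks in WT and 1 in *Bmi1*-/-, and none of these overlapped.

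*Lats1* encodes a kinase that phosphorylates YAP and TAZ. Its promoter peak at chr10:7681190-7681929 was at percentile 95.6 in WT, with 25 reads. The *Bmi1*-/- peak at chr10:7681245-7681853 was at percentile 93.0, with 31 reads, and the scaled pileup ratio was 0.9747 (0.557 to 1.72). This promoter faces *Pcmt1*, which encodes a protein repair methyltransferase and whose TSS lay 54 bp from the WT peak and 109 bp from the *Bmi1*-/- peak, so the peaks cannot be assigned to one of these genes. A weaker pair of peaks upstream of the TSS also overlapped, at percentile 27.6 in WT and percentile 50.3 in *Bmi1*-/-. This pair lay on the *Pcmt1* side of the promoter and likewise cannot be assigned to one of these genes.

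*Lats2*, the paralogous kinase, had its strongest WT promoter peak at a TSS inside the gene. This peak, at chr14:57699941-57700385, was at percentile 98.0, with 29 reads over a background of 7.82 and a fold enrichment of 3.40. No *Bmi1*-/- peak overlapped it, although a *Bmi1*-/- peak at chr14:57699595-57699914, at percentile 62.2, ended 27 bp away. The count of peaks without an overlap thus includes neighbours that nearly touch. At the upstream promoter the lists did overlap, with a WT peak at percentile 95.9 and a *Bmi1*-/- peak at chr14:57745512-57746246 at percentile 89.9. The latter also covered a TSS of *Gm49361*, a protein-coding gene model. For its length *Lats2* held many WT peaks, 9 beside a median of 3 in genes with a region of similar length (within a factor of 1.5), and 7 beside a median of 4 in *Bmi1*-/-.

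*Yap1* encodes the coactivator YAP. In WT its promoter held, beside a weaker peak, a pair of equal strength, at chr9:8003537-8003833 and chr9:8004011-8004323, both at percentile 63.1 with 19 reads. In *Bmi1*-/- 1 peak at chr9:8003795-8004868 overlapped both, with a width of 1074 bp, 25 reads and percentile 81.4. The scaled pileup ratio was 1.03 (0.547 to 1.99), so the higher rank came without a detectable difference in height. It was taken against the first of the equal WT peaks, with summits 432 bp apart. The second WT peak had its summit at 8004174, much nearer to the *Bmi1*-/- summit at 8004101. A TSS of the long noncoding RNA gene *Gm45494* lay within the *Bmi1*-/- peak. Another 3 *Bmi1*-/- peaks lay in introns of *Yap1*, none of them above percentile 20.7, and WT had none there.

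*Wwtr1* encodes TAZ, the other coactivator. Its promoter peak was 493 bp wide in WT, at chr3:57575575-57576067, and at percentile 78.3 with 21 reads. In *Bmi1*-/- it was 1430 bp wide, at chr3:57574841-57576270, and at percentile 94.0 with 33 reads. The summits were 18 bp apart, and the scaled ratio was 1.24 (0.694 to 2.25). This was the highest ratio among the overlapping member peaks. Wide *Bmi1*-/- peaks were not particular to these promoters, since 69.5% of all 9451 *Bmi1*-/- promoter peaks that overlapped the other list were wider than the summed width of the WT peaks they overlapped. Away from the promoter, *Wwtr1* had 6 WT peaks and 5 *Bmi1*-/- peaks, and none overlapped.

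*Tead1*, which encodes a DNA-binding partner of YAP and TAZ, had the largest number of *Bmi1*-/- peaks among the members, 25. In WT it had 13, as many as *Vgll4*. The *Tead1* region of 237 kb is the longest of the members. The 1051 protein-coding genes with a region of similar length had a median of 7 peaks in WT and 10 in *Bmi1*-/-, which put *Tead1* at percentiles 75.7 and 93.4 of those genes. In both lists 7 *Tead1* peaks overlapped the other list. The remaining 18 *Bmi1*-/- peaks had a median percentile of 32.7, beside 44.0 for all *Bmi1*-/- peaks without an overlap. Of these 18 peaks, 8 had a q-value under 0.05. That share was 62.8% over all *Bmi1*-/- peaks, with or without an overlap, and was not computed for those without one. The promoter peak ranked nearly alike in both lists, at chr7:112679133-112680067 and percentile 95.5 with 24 reads in WT, and at chr7:112679136-112679981 and percentile 96.0 with 32 reads in *Bmi1*-/-. The scaled ratio was 1.05 (0.598 to 1.86), between summits 542 bp apart. The TSS of the noncoding gene *2310014F06Rik* lay in or next to these peaks.

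Inside *Tead1*, 6 further peaks of each list overlapped. The intronic *Bmi1*-/- peak at chr7:112826048-112826603 was at percentile 92.9 and its WT partner at percentile 45.1. Another pair, at chr7:112862475-112862732 in WT and chr7:112862174-112862827 in *Bmi1*-/-, was at percentiles 85.9 and 73.6. The pairs that ranked furthest below WT were at percentile 64.6 in WT against 3.81 in *Bmi1*-/-, and at 46.4 against 2.70. Their scaled pileup ratios were 0.747 (0.377 to 1.47) and 0.742 (0.360 to 1.53), so no difference in height was detectable. Ranks within the lists thus differed in both directions inside the gene, although these percentiles are not on a common scale. The strongest *Tead1* peak without an overlap was the intronic *Bmi1*-/- peak at chr7:112867959-112868170, at percentile 94.4 with 30 reads over a background of 9.10, and the nearest WT peak was 5227 bp away.

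**Figure D2:**
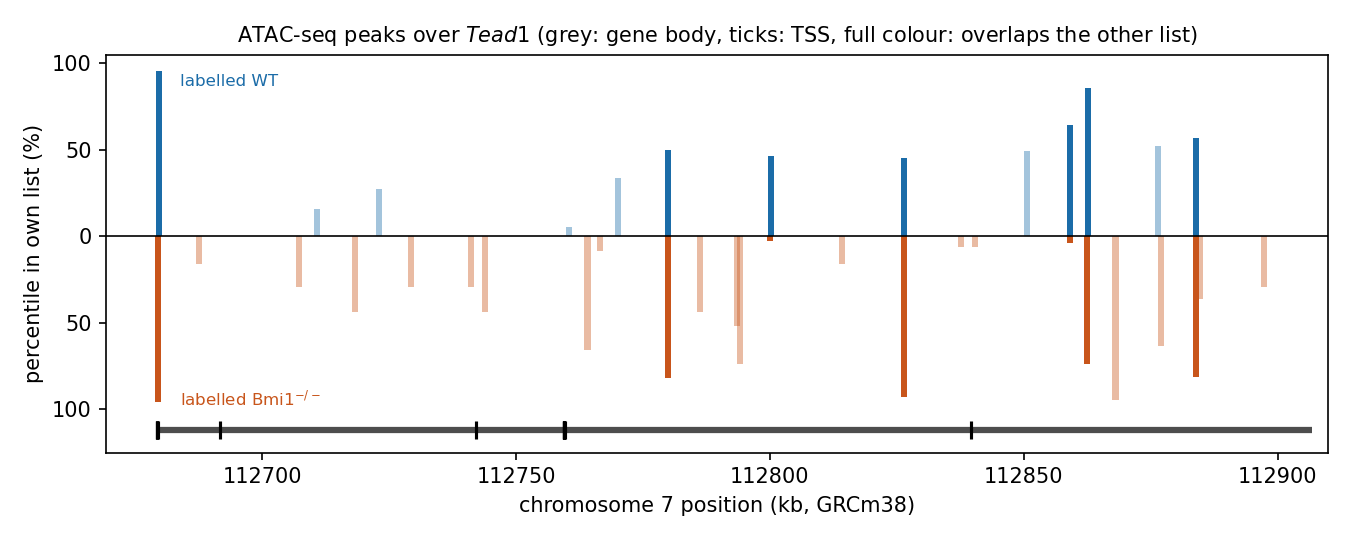
Peaks over *Tead1* on chromosome 7 (x axis, position in kb on GRCm38), with bar height as the percentile by −log10 p within the peak's own list, upward for WT and downward for *Bmi1*-/-, full colour where the peak overlaps the other list and pale where it does not, with narrow bars widened to be visible. The 13 WT and 25 *Bmi1*-/- peaks include 7 in each list that overlap, among them the promoter.

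The other TEAD genes encode related DNA-binding factors. *Tead2* was the only member without any overlap, with 3 WT and 4 *Bmi1*-/- peaks. Its strongest peaks, chr7:45229025-45229277 at percentile 52.7 in WT and chr7:45228487-45228703 at percentile 82.0 in *Bmi1*-/-, were 322 bp apart. Both counted as promoter peaks through a TSS inside the gene, 2158 and 2714 bp away. Near the start of *Tead2* the peaks were weak, at percentile 12.8 in WT and 9.31 in *Bmi1*-/-. *Tead3* had a promoter peak of nearly equal rank, chr17:28350789-28351128 at percentile 90.7 in WT and chr17:28350661-28351136 at percentile 90.1 in *Bmi1*-/-. These had the highest pileups of all member peaks in their lists, 33 and 39 reads, over high backgrounds of 12.5 and 15.8. *Tead4* had its promoter peak at percentile 83.4 in WT and at percentile 82.2 in *Bmi1*-/-, where it covered chr6:128300476-128300865. A second overlapping pair in an intron of *Tead4* had its WT peak at chr6:128241571-128241859, at percentile 86.1, and its *Bmi1*-/- peak at percentile 72.9, with summits 5 bp apart. The other intronic pair of *Tead4* was ordered the other way, at percentile 47.7 in WT and 61.6 in *Bmi1*-/-.

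*Vgll4* encodes a cofactor that competes with YAP for TEAD proteins. It held the *Bmi1*-/- promoter peak without an overlap that ranked highest among the members, at chr6:114968659-114969256, at percentile 94.98 with 33 reads over a background of 10.5 and a fold enrichment of 2.96. The nearest WT peak lay 368 bp away, over the neighbouring TSS, at percentile 15.1. The strongest WT promoter peak of the gene, at percentile 48.6, was at chr6:114863793-114864012. It lay 855 bp from a different TSS, near the other end of the gene. The WT peak at percentile 15.1 overlapped another *Bmi1*-/- peak, at percentile 37.7. An intronic pair also ranked higher in *Bmi1*-/-, with the peak at chr6:114939769-114939980 at percentile 95.04 and its WT partner at percentile 65.3. The other intronic pair of *Vgll4* ranked lower in *Bmi1*-/-, at percentile 23.4 against 65.5 in WT. In total *Vgll4* had 13 WT and 11 *Bmi1*-/- peaks, with medians of 4 and 6 in genes of similar length.

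**Figure D3:**
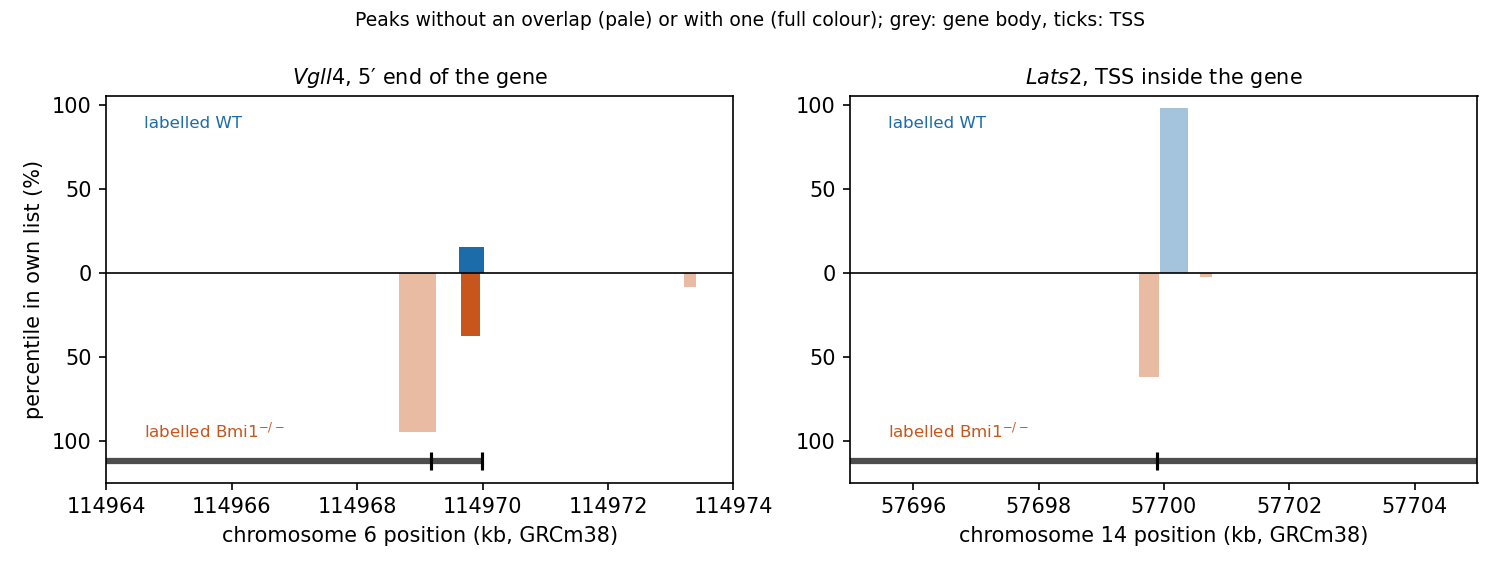
Peaks at the start of *Vgll4* on chromosome 6 and at a TSS inside *Lats2* on chromosome 14 (x axes, position in kb on GRCm38), with bar height as the percentile within the peak's own list, upward for WT and downward for *Bmi1*-/-, pale where no peak of the other list overlaps. The *Bmi1*-/- peak of *Vgll4* at percentile 94.98 lies 368 bp from a WT peak, and the WT peak of *Lats2* at percentile 98.0 lies 27 bp from a *Bmi1*-/- peak.

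Over all members 23 *Bmi1*-/- peaks overlapped a WT peak of the same gene. Their scaled pileup ratios ran from 0.707 to 1.24 with a median of 0.957, and all 23 intervals included 1. The median distance between the summits compared was 82 bp. At the 11 promoter pairs the median was 1.004, and over all 9451 overlapping promoter peaks of protein-coding genes it was 1.05. At the 12 pairs away from promoters the median was 0.802, with 3 ratios above 1. Over all 9096 such peaks it was 0.925, with 33.5% of ratios above 1. These pairs exist only where both libraries gave a peak, so they cannot show a gain or loss of a peak. No difference in height was detectable at this depth at any overlapping member peak.

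Beyond the members, the promoters of 31 further genes of the pathway were examined by role. All 5 core kinases and adaptors, which relay the signal to LATS, had overlapping promoter peaks. Among them *Stk3*, the MST2 kinase gene, was strongest in both lists, at percentile 98.8 in WT and percentile 99.4 in *Bmi1*-/-. All 10 upstream regulators also had overlapping promoter peaks. The strongest in WT was *Taok3* at percentile 99.1 and the strongest in *Bmi1*-/- was *Taok1* at percentile 99.6, both genes of kinases that act on MST1 and MST2.

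Of 7 junction and scaffold genes, 5 had a promoter peak in both lists and 3 had overlapping ones. *Amot*, an angiomotin gene, and *Limd1*, which encodes a LIM domain protein that binds LATS, had promoter peaks in *Bmi1*-/- only, at percentiles 78.0 and 87.0. *Wtip* was strongest in WT, at percentile 90.9, and *Amotl2* in *Bmi1*-/-, at percentile 94.5. None of the 3 other TEAD cofactor genes had a WT promoter peak. *Vgll3* had a *Bmi1*-/- peak at chr16:65814959-65816078, at percentile 97.5 with 32 reads, and *Vgll2* a weak one at percentile 6.15, while *Vgll1* had none in either list.

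Among 6 transcriptional targets, *Ccn2*, a classical YAP target, had the strongest promoter peak in both lists, at percentile 98.5 in WT and percentile 96.1 in *Bmi1*-/-. *Ccn1*, a related target, had a promoter peak in WT only, at percentile 65.2. *Ankrd1* and *Birc5* had one in *Bmi1*-/- only, at percentiles 93.4 and 62.0. In all, 23 of the 31 genes had a promoter peak in both lists, 1 in WT only, 6 in *Bmi1*-/- only and 1 in neither, and in 20 the peaks overlapped. Over all protein-coding genes 53.0% had one in both lists, 6.10% in WT only, 15.2% in *Bmi1*-/- only and 25.7% in neither, and 40.4% had overlapping ones. Single-list promoters were thus more often *Bmi1*-/- ones among all genes too, and the *Bmi1*-/- list is the longer.

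TEAD proteins bind the core CATTCC, which was searched on both strands within 100 bp of each summit. It was found at 6 of 70 WT member peaks (8.57%, 3.21% to 17.7%), beside 10.2% of all WT peaks. It was found at 14 of 78 *Bmi1*-/- member peaks (17.9%, 10.2% to 28.3%), beside 10.3% of all *Bmi1*-/- peaks. The background share lay within both intervals. Within 50 bp the *Bmi1*-/- share was 12.8% (6.32% to 22.3%) beside 5.29% of all, and the WT share 5.71% (1.58% to 14.0%) beside 5.24%. At this window the background share lay just under the interval for *Bmi1*-/- and within it for WT. Within 250 bp both lists were near their background, at 24.3% beside 24.2% in WT and 26.9% beside 25.1% in *Bmi1*-/-. Of the *Bmi1*-/- matches, 5 were at *Tead1* and 3 at *Vgll4*. A match describes the letters of a window and is not evidence of binding.

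Windows of 201 bases around the summits of 5 peaks described above are shown, chosen so that the window itself overlapped no annotated exon, on the forward strand of GRCm38, with CATTCC or its reverse complement in capitals. The first is at the *Tead3* promoter (chr17:28350879-28351079), where the window of both lists held a match. The second is the strong intronic *Bmi1*-/- peak of *Tead1* without an overlap (chr7:112867933-112868133), and the third the intronic *Tead1* peak that overlapped (chr7:112826362-112826562). The fourth is the overlapping intronic WT peak of *Tead4* at percentile 86.1 (chr6:128241596-128241796), and the fifth the intronic *Vgll4* peak at percentile 95.04 (chr6:114939775-114939975).
*Tead3* promoter: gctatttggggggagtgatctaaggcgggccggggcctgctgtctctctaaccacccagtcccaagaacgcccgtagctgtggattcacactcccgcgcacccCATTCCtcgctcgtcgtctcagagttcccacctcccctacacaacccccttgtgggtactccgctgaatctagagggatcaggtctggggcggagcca
*Tead1* intron, no overlap: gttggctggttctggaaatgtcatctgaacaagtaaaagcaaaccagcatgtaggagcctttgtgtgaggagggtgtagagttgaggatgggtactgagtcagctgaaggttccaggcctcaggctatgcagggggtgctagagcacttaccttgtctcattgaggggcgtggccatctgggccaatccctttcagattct
*Tead1* intron, overlap: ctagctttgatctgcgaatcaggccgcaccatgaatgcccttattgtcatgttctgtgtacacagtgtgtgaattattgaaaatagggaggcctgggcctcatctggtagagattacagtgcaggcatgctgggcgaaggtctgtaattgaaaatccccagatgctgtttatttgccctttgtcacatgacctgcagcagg
*Tead4* intron, overlap: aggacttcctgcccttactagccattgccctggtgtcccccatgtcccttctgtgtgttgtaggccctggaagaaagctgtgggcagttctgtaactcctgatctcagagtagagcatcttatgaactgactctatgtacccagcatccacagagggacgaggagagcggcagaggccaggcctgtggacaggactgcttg
*Vgll4* intron, overlap: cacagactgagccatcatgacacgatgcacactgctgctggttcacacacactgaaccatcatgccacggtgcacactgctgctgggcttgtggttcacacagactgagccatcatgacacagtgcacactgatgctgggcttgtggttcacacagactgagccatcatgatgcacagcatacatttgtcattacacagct
Only the *Tead3* window held a match. The *Vgll4* window is a repeat, in which a word of 12 bases occurred 3 times. Such repeats were present at 5 of the 78 *Bmi1*-/- member peaks, or 6.41%, and at 7.16% of all *Bmi1*-/- peaks. Reads from repeats can be misplaced by mapping, and their part in the height of this peak was not tested.

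The tissue holds several cell types, and more open chromatin per cell cannot be told apart from more cells of a type. Of all protein-coding genes 59.1% had a promoter peak in WT and 68.2% in *Bmi1*-/-. Of 10 supporting cell marker genes, 10 had a promoter peak in WT and 9 in *Bmi1*-/-. Of 10 hair cell genes, 7 and 8 had one, and *Rasd2* had none in either list. For neurons the counts were 5 and 8, with none in either list at *Elavl4*. For mesenchyme they were 6 and 6, with none at *Col3a1* and *Dcn*. For blood and macrophages they were 4 and 3, with none at *Ptprc*, *Cd68*, *Hbb-bs* and *Gata1*, and for endothelium 8 and 7, with none at *Emcn*. These lists are short and their order was not tested, and the part of cell composition in the member peaks was not tested.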

How the data were processed

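One peak list per genotype, each from 1 ATAC-seq library, was assigned by its GEO label. Reads were mapped by the authors using BWA-MEM, and MACS2 was run on each library separately. The submitters' processing notes also name FastQC, HOMER and mm10, and versions for the ATAC-seq processing were not given in the sources used here. Fold enrichment, as deposited, was taken as the ratio of summit pileup to local background with 1 added to each. The deposited −log10 p and −log10 q values rank peaks within a library. The score deposited by the authors was not used. RNA-seq and ChIP-seq were not analysed here.

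Peaks outside the main chromosomes, 230 in WT and 237 in *Bmi1*-/-, were left out. Transcripts came from GENCODE vM21. Pileups were solved under a Poisson model, with a whole pileup (misfit under 0.002 in −log10 p) at 100% of peaks in each list, and the solver was tested on simulated data. A gene with a promoter peak in 1 list only counts as ranking higher there. Python 3.11.15, numpy 2.4.6, pandas 2.3.3, scipy 1.17.1, pysam 0.24.0 and matplotlib 3.10.9 were used.

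The members and gene lists were chosen with earlier results of these data known. Named were all members, pathway genes with a promoter peak in 1 list only or the strongest of their role, genes with a TSS within 1 kb of a member's strongest promoter peak, and marker genes without a promoter peak in either list. The result of 1 further marker list is not reported here. *Vgll1* falls outside this naming rule and was named after its values were seen. The repeat measure and the choice of printed windows were likewise made with the data in hand. Alternatives were stricter −log10 q, equal list lengths, other windows and upstream stretches, placement by any overlap, curated RefSeq transcripts, coding transcripts, reciprocal overlap, other motif windows, and leaving out the longest member.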

Additional observations from a re-analysis of the deposited data

How the results depend on the processing

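Of 84 recomputed values 69 did not move beyond their interval or, for counts, beyond 1.5 times, and 15 did. Thresholds on −log10 q had the largest part. At 1.3 the member peaks numbered 39 in WT and 44 in *Bmi1*-/-, yet all 10 genes kept a promoter peak in each list. At 5 there were 0 WT and 2 *Bmi1*-/- peaks, at the promoters of 2 genes in *Bmi1*-/- and 0 in WT, so 2 genes ranked higher in *Bmi1*-/- and 0% of the *Bmi1*-/- peaks overlapped. At 10 both lists had 0 member peaks and 0 member promoters with a peak. At 5 and 10 there were too few peaks to compute 6 further values. These losses follow from the construction of the thresholds, since fewer peaks pass. With a reciprocal overlap of at least 50% the overlapping share was 18.6% of WT and 16.7% of *Bmi1*-/- member peaks, because the rule asks for more overlap. The TEAD core was found at 24.3% of WT member peaks within 250 bp of the summit, where the window is longer. The number of genes ranking higher in *Bmi1*-/- was 7 at a −log10 q of at least 1.3 and 4 with equal list lengths and with curated RefSeq. Without *Tead1* it was 4 of the 9 genes left, which follows by construction, since *Tead1* was among the genes counted. Pileups of 15 to 39 reads limit what can be resolved. No paired analysis was possible because each genotype has 1 library and no test was made.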
